A study of Mus musculus with 18 samples.

Results

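The genes described here are 42 mouse genes whose proteins act in mitosis, at the spindle, the kinetochore, the chromosomes or the cleavage furrow. They were chosen by symbol, for their known roles, from the 21959 genes of the MEF count table and the 51826 genes of the liver count table, and all 42 were found in both. They fall into 8 subgroups by role: 3 kinases, 5 spindle checkpoint genes, 3 genes of the chromosomal passenger complex, 10 centromere and kinetochore genes, 8 motor and spindle genes, 7 condensin and chromosome genes, 3 anaphase genes and 3 cytokinesis genes.

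The study deleted repeat B of Xist, the RNA that coats and silences the inactive X chromosome of female cells. RNA-seq was available for 3 RepB-/- and 3 WT libraries of primary mouse embryonic fibroblasts (MEFs) and for 3 RepB-/- and 3 WT libraries of liver. RepB-/- mice carry the deletion, made by CRISPR/Cas9, on both X chromosomes, and no other treatment or allele is given for either genotype. The letter B in a library label was read as RepB-/- and W as WT. The labels give no sex, strain or age, name tail as the tissue of the MEF libraries beside a primary MEF line, and do not say whether replicates are separate animals or cultures, so the p-values below measure the spread between these libraries, which may be technical.

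During mitosis, microtubules attach to each chromosome at the kinetochore, a protein complex assembled on centromeric chromatin that contains CENP-A. The kinases of the Aurora and Polo families drive spindle assembly, while the spindle assembly checkpoint holds back the anaphase-promoting complex until every kinetochore is attached. Transcripts of most of these genes rise in G2 and M phase, so that in a mixed population of cells their level is widely read as a mark of dividing cells. In bulk RNA, more dividing cells, a longer stay of cells in G2 or M phase and more transcript per cell cannot be told apart. For RepB-/- MEFs the paper reports slower proliferation, a larger share of cells in G2/M and higher expression of cell cycle signature genes. It also reports less Ki67 staining in tissues of RepB-/- mice, except the lungs.

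Genes of this class are known to share promoter elements, the cell cycle homology region (CHR) that the DREAM and MuvB complexes bind and the CCAAT box that NF-Y binds. RefSeq promoter windows of 300 bases on GRCm38.p6, from 250 bases before the start to 50 bases after it, were at hand for 36 of the 42 genes, 41 windows in all. The stretches below stand before the start of 4 genes that rose in RepB-/- MEFs (Ncapg, Top2a, Kif11 and Mki67) and of 2 that did not pass the test (Espl1 and Cdc20). Capitals mark CHR letters (TTTGAA or TTCGAA, or TTCAAA where it lies on the opposite strand) and CCAAT boxes (CCAAT, or ATTGG on the opposite strand).
Ncapg, chr5:45669835-45669924, plus strand: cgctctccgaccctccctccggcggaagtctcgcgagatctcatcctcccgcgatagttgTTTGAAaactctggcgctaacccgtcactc
Top2a, chr11:99024190-99024279, minus strand: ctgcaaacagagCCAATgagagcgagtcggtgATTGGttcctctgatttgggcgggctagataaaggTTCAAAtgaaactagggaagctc
Kif11, chr19:37376292-37376381, plus strand: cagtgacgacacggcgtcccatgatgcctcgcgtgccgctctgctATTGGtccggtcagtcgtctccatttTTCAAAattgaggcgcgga
Mki67, chr7:135716469-135716529, minus strand: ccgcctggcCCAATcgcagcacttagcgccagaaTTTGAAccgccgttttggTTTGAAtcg
Espl1, chr15:102296203-102296292, plus strand: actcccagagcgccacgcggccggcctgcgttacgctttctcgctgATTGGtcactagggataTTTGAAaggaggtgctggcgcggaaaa
Cdc20, chr4:118437344-118437433, minus strand: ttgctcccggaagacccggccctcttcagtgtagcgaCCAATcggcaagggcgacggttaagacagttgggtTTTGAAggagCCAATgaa

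CHR letters stood in 31 of the 41 windows (75.6%) and in 19.2% of all 32851 windows of the same length. In the last 100 bases before the start and the 50 after it the shares were 68.3% and 8.59%, and in the part before the start alone they were 39.0% and 17.1%. CCAAT was found in 75.6% of the members' windows and 37.4% of all windows. An E2F site (TTTCCCGC, TTTCGCGC, TTTGCCGC or TTTGGCGC, either strand) stood in 9.76% and 2.26%. The CHR letters did not separate the genes by their values in MEFs: they were present for 17 of the 21 genes that rose there and have a window, and for 11 of the 15 others. A match of letters describes a sequence and shows no binding.

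The MEF libraries held 20005541 to 20587556 counts in RepB-/- and 11540344 to 16347806 in WT, and the liver libraries 37682201 to 51542709. Sequencing depth thus separated the genotypes in MEFs, and its part in the MEF differences was not tested. All 42 genes passed the filter on low counts in both tissues, with 15 to 2314 counts per library in MEFs and 2 to 2747 in liver. Fibroblast markers were present in MEFs (9 of 9) and hepatocyte markers in liver (9 of 9), while the summed level of the hepatocyte list stayed at or below 2.77 CPM (counts scaled by library size) in every MEF library. The MEF table lists no Xist, so the deletion was not checked there, and the liver counts do not show which part of Xist they cover. The library labelled liver RepB-/- replicate 2 held 4342 counts of Y-linked genes and 4 of Xist, where the other 5 liver libraries held at most 1 Y-linked count and 14494 to 26345 of Xist. Y-linked counts with almost no Xist are those of a male library, which goes against a label of a deletion on both X chromosomes. It is therefore called the library labelled RepB-/- replicate 2. The number of liver calls, the fits with replicate number as a block, the counts over pairs and the median log2 difference are given with and without it. The other liver counts include it. Replicate 1 of liver stood apart in both genotypes: fetal liver markers (Afp, H19, Igf2 and Dlk1) summed to 6323 CPM in RepB-/- and 5561 CPM in WT, and to 4.19 to 15.8 CPM in the other 4 libraries. Values below are CPM scaled by TMM factors, except those of cell type markers, which are CPM scaled to total counts alone. The test is the quasi-likelihood test of edgeR. Its p-values were adjusted by Benjamini-Hochberg across every gene tested in a tissue, with a threshold of 0.05.

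In MEFs, 24 of the 42 genes were higher in RepB-/- than in WT and 0 were lower. Over all 13306 genes tested, 39.1% were called, 19.4% as higher and 19.7% as lower. The median log2 fold change of the 42 genes was 0.42, that of all genes tested was 0.00030, and 38 of the 42 lay above 0. The values of the 3 RepB-/- libraries all exceeded those of the 3 WT libraries in 30 genes, against 26.4% of all genes tested, and fell below all of them in 0 genes, against 25.8%. Of the 24 that rose, 8 rose at least 2-fold: Ttk, Cenpe, Cenpf, Ndc80, Knl1, Ncapg, Top2a and Mki67. The share of all genes tested that rose as far was not counted. Relative to the WT mean on the log2 scale, the 42 genes had a median of 0.34, 0.37 and 0.41 in RepB-/- replicates 1 to 3, and of -0.0053, -0.056 and 0.050 in WT. Their CPM summed to 1079, 1134 and 1189 in RepB-/- and to 863, 847 and 911 in WT, so that the genotypes did not overlap.

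**Figure D1:**
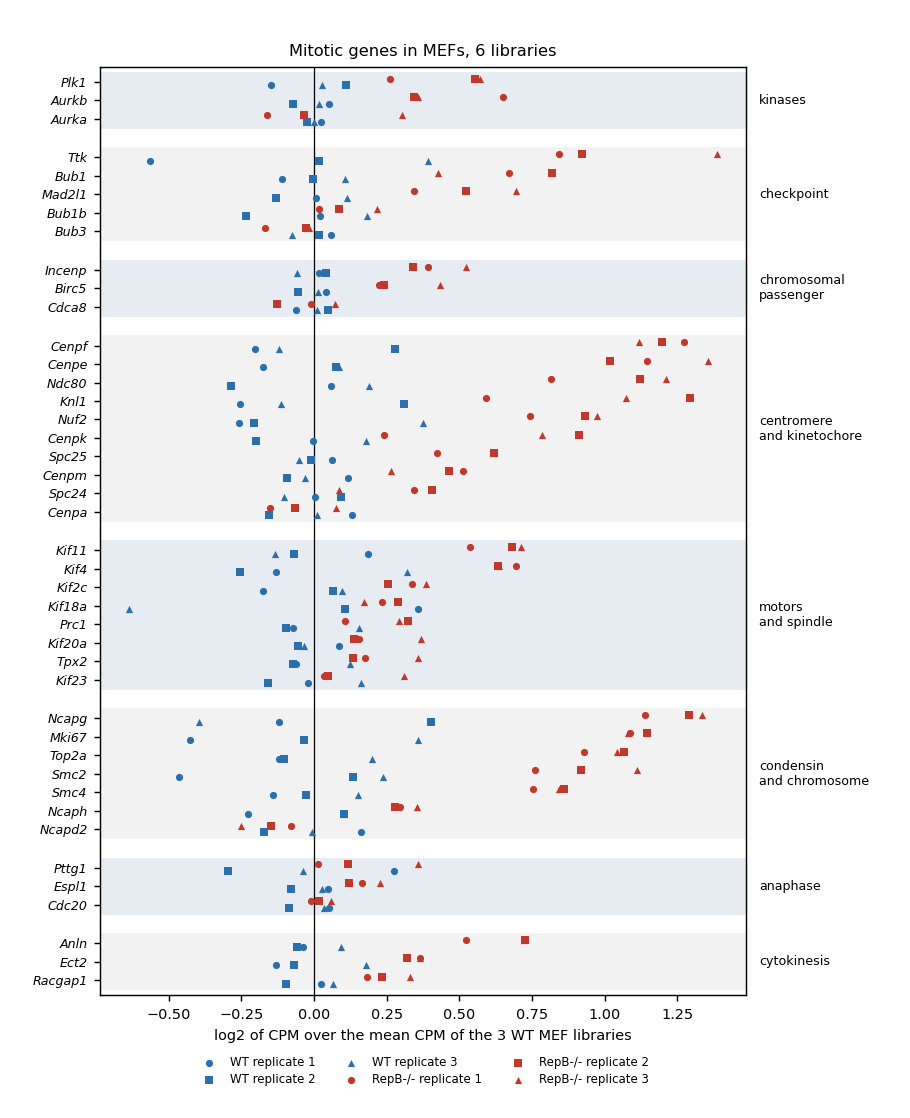
Each of the 42 mitotic genes in the 6 MEF libraries, as the log2 of its CPM over the mean CPM of the 3 WT libraries; red symbols are RepB-/- and blue symbols WT, with a symbol shape for each replicate number. Red lies wholly to the right of blue in 30 genes, and the subgroup medians of the fitted log2 fold change are highest for condensin and chromosome genes (0.92) and for centromere and kinetochore genes (0.77).

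Of the 3 kinases, Plk1 and Aurkb rose and Aurka did not pass the test. Plk1, the Polo kinase that acts from mitotic entry to cytokinesis, stood at 21.9, 26.8 and 27.1 CPM in RepB-/- and 16.4, 19.7 and 18.6 CPM in WT. Aurkb, the kinase of the chromosomal passenger complex, stood at 17.2, 13.9 and 14.1 CPM and at 11.4, 10.5 and 11.1 CPM. In both genes every RepB-/- library was above every WT library, and both rose 1.38-fold, Plk1 with a log2 fold change of 0.46 ± 0.11 (SE, adjusted p = 0.00578) and Aurkb with 0.46 ± 0.13 (adjusted p = 0.0113, or 0.0624 without RepB-/- replicate 1). Aurka, the centrosomal and spindle-pole Aurora kinase, was at 22.9, 25.1 and 31.6 CPM against 26.1, 25.2 and 25.7 CPM. Its groups overlapped, and the log2 difference of 0.05 ± 0.12 did not pass the test (adjusted p = 0.761) and turned to -0.06 when libraries were scaled to total counts and to -0.09 without RepB-/- replicate 3.

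Of the 5 checkpoint genes, Ttk, Bub1 and Mad2l1 rose, while Bub1b and Bub3 did not pass the test. Ttk encodes the kinase MPS1, which starts checkpoint signalling at unattached kinetochores, and was at 7.24, 7.65 and 10.5 CPM in RepB-/- against 2.73, 4.08 and 5.29 CPM in WT. No WT library reached the lowest RepB-/- library, and the gene rose 2.07-fold (log2 1.05 ± 0.23, adjusted p = 0.00293). The log2 fold changes of Bub1, a scaffold kinase of the checkpoint, and of Mad2l1, which binds and holds CDC20, were 0.64 (adjusted p = 0.00384) and 0.53 (adjusted p = 0.00269). Bub3, the partner that carries BUB1 and BUBR1 to the kinetochore, was the most abundant of the 5 per length, at 17.6 ± 1.3 FPKM in WT (SD, n = 3, from the deposited FPKM values). It was at 106, 116 and 117 CPM in RepB-/- and 123.4, 120 and 112 CPM in WT, overlapping groups with a log2 difference of -0.07 ± 0.07 (adjusted p = 0.482). The value for Bub1b, which encodes BUBR1, was 0.11 (adjusted p = 0.491).

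Among the passenger genes, Incenp and Birc5 rose and Cdca8 did not pass the test. Incenp, the scaffold that binds and activates Aurora B, was at 46.0, 44.4 and 50.4 CPM in RepB-/- and 35.4, 36.1 and 33.7 CPM in WT, a rise of 1.34-fold with no overlap (log2 0.42 ± 0.08, adjusted p = 0.00148). Birc5, or survivin, was at 20.5, 20.8 and 23.8 CPM against 18.1, 16.9 and 17.8 CPM. The libraries of the genotypes did not overlap there either, but the step was small (log2 0.30 ± 0.10, adjusted p = 0.0322), and it did not pass with DESeq2 (adjusted p = 0.0634) or without RepB-/- replicate 2 (0.0543) or 3 (0.130) or WT replicate 2 (0.0804) or 3 (0.0668). Cdca8, or borealin, stood at 24.8, 22.9 and 26.3 CPM in RepB-/- and 24.0, 25.8 and 25.2 CPM in WT, a log2 difference of -0.02 ± 0.10 (adjusted p = 0.880) that turned to 0.04 without RepB-/- replicate 2.

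The centromere and kinetochore subgroup held 6 genes that rose and 4 that did not pass the test, with a median log2 fold change of 0.77. Cenpf, a large outer kinetochore and nuclear envelope protein, was at 9.38, 8.89 and 8.41 CPM in RepB-/- and 3.37, 4.70 and 3.56 CPM in WT. The lowest RepB-/- library thus stood well above the highest WT library, and the gene rose 2.28-fold (log2 1.19 ± 0.18, adjusted p = 0.000219). Cenpe, the kinetochore-bound kinesin that carries chromosomes to the spindle equator, rose by a log2 of 1.17 (adjusted p = 3.94e-05). Of the 4 genes of the NDC80 complex, which grips the microtubule end, Ndc80 (1.06), Nuf2 (0.87) and Spc25 (0.56) rose on the log2 scale. Spc24 did not pass the test. It was at 9.63, 10.1 and 8.06 CPM in RepB-/- against 7.62, 8.10 and 7.07 CPM in WT, with a log2 difference of 0.29 ± 0.15 (adjusted p = 0.151). Once GC content was corrected for, these 4 genes were at 0.93, 0.70, 0.47 and 0.33, and differences between them were not tested. Knl1, the scaffold to which BUB1 and BUBR1 are recruited, rose by 1.01 (adjusted p = 0.00396). Cenpa, the centromeric histone H3 variant, was at 16.6, 17.6 and 19.4 CPM in RepB-/- and 20.1, 16.5 and 18.5 CPM in WT. Those libraries were interleaved, and the log2 difference was -0.04 ± 0.11 (adjusted p = 0.798). Cenpk and Cenpm, inner kinetochore subunits with few counts, did not pass the test at log2 differences of 0.67 and 0.42, although their RepB-/- libraries were all above WT.

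In the motor and spindle subgroup 3 of 8 genes rose. Kif11, the kinesin that pushes the spindle poles apart, was at 13.9, 15.4 and 15.7 CPM in RepB-/- and 10.9, 9.15 and 8.73 CPM in WT, a rise of 1.57-fold with no overlap (log2 0.65 ± 0.13, adjusted p = 0.00153). Kif4, a chromokinesin of chromosome arms and the central spindle, is the X-linked gene of the 42. It was at 17.2, 16.5 and 16.5 CPM in RepB-/- against 9.70, 8.90 and 13.2 CPM in WT, also 1.57-fold higher without overlap (log2 0.65 ± 0.14, adjusted p = 0.00306). The median log2 fold change of the subgroup was 0.25, and a part of X linkage in the rise of Kif4 was not tested. Kif2c, the microtubule depolymerase at centromeres, rose by 0.32 (adjusted p = 0.0427), a call lost with DESeq2 (adjusted p = 0.0864) and without any of 5 of the 6 libraries, WT replicate 3 being the exception (adjusted p from 0.0536 to 0.114). Kif23, the kinesin of the central spindle, stood at 11.3, 11.4 and 13.7 CPM in RepB-/- and at 10.9, 9.89 and 12.4 CPM in WT, which overlapped, with a log2 difference of 0.13 ± 0.14 (adjusted p = 0.465). Kif20a, Kif18a, Tpx2 and Prc1, which act in cytokinesis, chromosome alignment, spindle assembly and midzone bundling, had log2 differences of 0.22 to 0.25 and adjusted p of 0.0544 to 0.457. Of these, Kif20a passed without a filter on low counts (adjusted p = 0.0313) and without WT replicate 1 (adjusted p = 0.0236), and Tpx2 and Prc1 passed without WT replicate 3 (adjusted p = 0.0317 and 0.0343).

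Condensin and chromosome genes gave 5 rises of 7. The largest rise of all 42 genes was that of Ncapg, a HEAT-repeat subunit of condensin I, at 9.99, 11.1 and 11.45 CPM in RepB-/- and 4.17, 5.998 and 3.45 CPM in WT. No library of the genotypes overlapped, and the fold was 2.38 (log2 1.25 ± 0.19, adjusted p = 0.000246). Ncapd2, the other HEAT-repeat subunit of the same complex, was at 43.7, 41.6 and 38.8 CPM in RepB-/- and 51.6, 40.9 and 45.9 CPM in WT, overlapping groups with a log2 difference of -0.15 ± 0.09 (adjusted p = 0.212). The core subunits Smc2 and Smc4 rose by log2 values of 0.92 and 0.82, and the kleisin Ncaph, at 0.30, did not pass the test (adjusted p = 0.0554). The estimates for subunits of a single complex were therefore unequal in these libraries, but differences between genes were not tested. Once GC content was corrected for, the log2 values of Ncapg, Smc2, Smc4, Ncaph and Ncapd2 were 1.00, 0.67, 0.57, 0.28 and -0.09. Top2a, the topoisomerase that disentangles chromosomes, was at 86.0, 94.5 and 93.0 CPM in RepB-/- and 41.5, 42.1 and 51.8 CPM in WT, a rise of 2.02-fold (log2 1.01 ± 0.09, adjusted p = 4.28e-06). Mki67, which encodes the proliferation marker Ki-67 of the chromosome surface, was at 42.6, 44.3 and 42.4 CPM in RepB-/- and 14.9, 19.5 and 25.7 CPM in WT. Both genes left a gap between the genotypes, and Mki67 rose 2.13-fold (log2 1.09 ± 0.14, adjusted p = 7.17e-05).

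The 3 anaphase genes were the subgroup with 0 calls. None was under an unadjusted p of 0.05 by edgeR or by DESeq2, where 6347 of the 13306 genes tested were by edgeR. Pttg1, or securin, the inhibitor of separase, was at 7.75, 8.32 and 9.83 CPM in RepB-/- and 9.30, 6.25 and 7.48 CPM in WT (log2 0.18 ± 0.17, adjusted p = 0.439). Cdc20, the activator of the anaphase-promoting complex, had the highest level per length of the 42 genes in WT MEFs, at 27.2 ± 2.3 FPKM (SD, n = 3). It stood at 48.5, 49.4 and 50.8 CPM in RepB-/- and 50.6, 45.9 and 49.96 CPM in WT, with overlapping groups and a log2 difference of 0.02 ± 0.08 (adjusted p = 0.841). Espl1, which encodes separase, had a log2 difference of 0.17 (adjusted p = 0.168) and passed once GC content was corrected for. All 3 cytokinesis genes rose. Anln, the anillin that links actin, septins and the cleavage furrow, was at 63.6, 73.2 and 73.1 CPM in RepB-/- and 43.1, 42.5 and 47.2 CPM in WT, 1.58-fold higher without overlap (log2 0.66 ± 0.08, adjusted p = 6.75e-05). Racgap1, the GTPase-activating partner of KIF23 in centralspindlin, was at 41.6, 43.2 and 46.2 CPM and at 37.4, 34.4 and 38.4 CPM, a smaller step with no overlap (log2 0.25 ± 0.08, adjusted p = 0.0303) that did not pass without RepB-/- replicate 2 (0.0712) or 3 (0.109) or WT replicate 2 (0.0964). Ect2, the RhoA exchange factor, rose by 0.35 (adjusted p = 0.0251), which held without WT replicate 3 but not without any other library (adjusted p from 0.0522 to 0.0698).

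**Figure D2:**
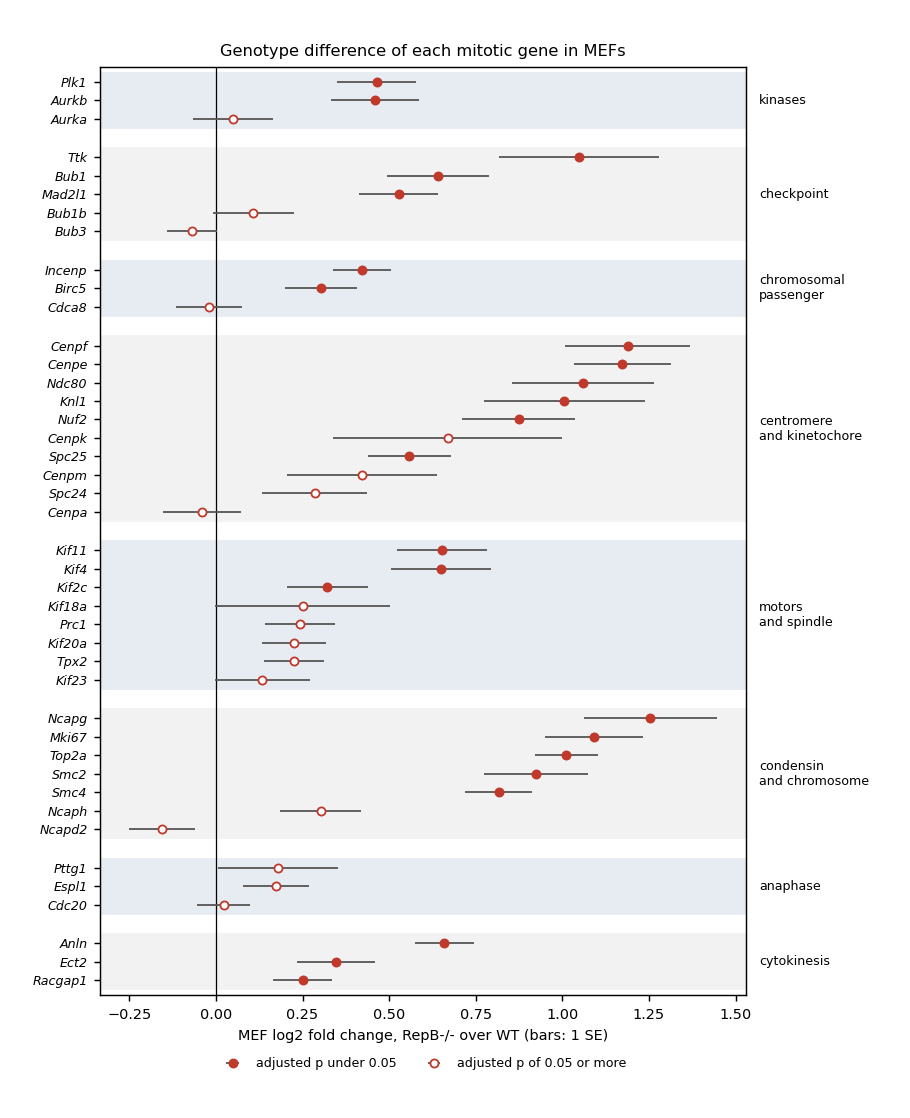
The log2 fold change of each of the 42 genes in MEFs, RepB-/- over WT, with bars of 1 SE from the edgeR fit; filled circles passed an adjusted p of 0.05 and open circles did not. Filled circles appear in every subgroup except anaphase, and no gene passed the test to the left of 0.

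The fold changes followed the GC content of the transcript. Over the 13266 tested genes with a value, the Spearman correlation of the MEF log2 fold change with transcript GC content was -0.29, and over the 42 genes it was -0.55. These are correlations across genes of the same 6 libraries, and genes are not independent replicates. In the quintile of all genes with the lowest GC content the median log2 fold change was 0.19 and 34.6% of genes were higher, while in the highest quintile the median was -0.13 and 10.2% were higher. The lowest quintile held 17 of the 42 genes, among them 14 that rose, and its median for these 17 genes was 0.87. The highest quintile held 1, Espl1. With a smooth GC trend removed from each library, 23 of the 42 genes were higher, against 17.8% of all genes tested, and their median log2 fold change was 0.33. Of the 24 genes called at first, 22 remained. Mad2l1 (0.28, adjusted p = 0.0526) and Ect2 (0.11, adjusted p = 0.455) no longer passed, and Bub3 was lower (-0.25, adjusted p = 0.0141), against 20.3% of all genes. Ncapg, Cenpf, Mki67 and Top2a kept log2 values of 1.00, 1.04, 1.03 and 0.86.

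**Figure D3:**
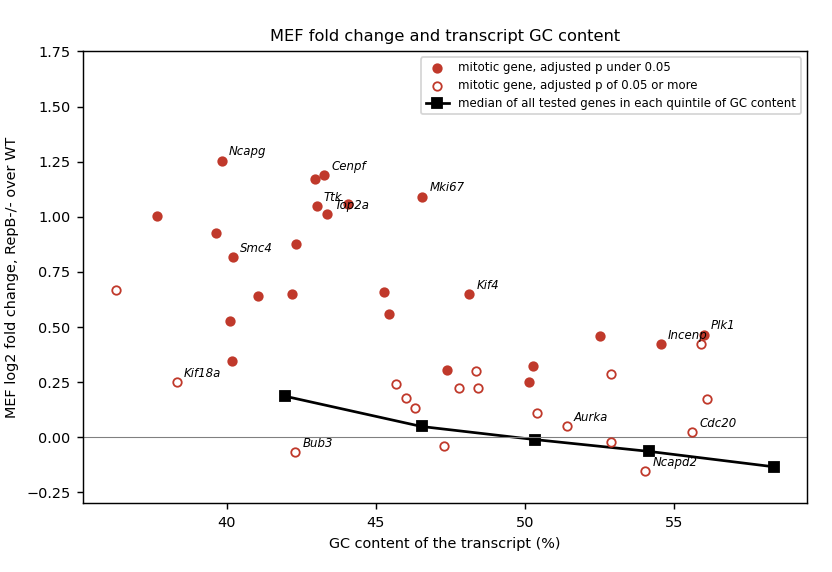
MEF log2 fold change, RepB-/- over WT, against transcript GC content in percent; red circles are the 42 genes, filled where the adjusted p was under 0.05, and black squares are medians of all tested genes in each quintile of GC content. The 14 filled circles of the lowest quintile lie above its median of 0.19, and the black line falls to -0.13 in the highest quintile.

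The scale also mattered for small differences. Scaling to total counts in place of TMM moved the median log2 fold change of all genes to -0.11 and the calls over all genes from 2581 higher and 2621 lower to 1645 higher and 3623 lower. Of the 24 genes, 19 stayed higher on that scale, against 12.4% of all genes tested, and 0 of the 42 were lower, against 27.2%. The 5 that no longer passed were Aurkb, Birc5, Kif2c, Ect2 and Racgap1. Plk1, Bub1, Ttk, Incenp, Cenpe, Cenpf, Ndc80, Nuf2, Spc25, Knl1, Kif11, Kif4, Smc2, Smc4, Ncapg, Top2a, Mki67 and Anln, 18 genes, were called higher under the main settings and under every alternative that was run.

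Marker lists of other cell types also differed by genotype in the same MEF libraries, though not in every gene. The endothelial list was at 10.7 to 12.2 CPM in RepB-/- and 24.3 to 30.1 CPM in WT, and all 4 of its genes were lower in RepB-/- without overlap. The muscle list (Acta1, Des, Myod1 and Myog) summed to 56.2 to 62.3 CPM in RepB-/- and 132 to 193 CPM in WT. Of these only Acta1, skeletal muscle actin, separated the genotypes, at 35.4 to 46.0 CPM against 114 to 173 CPM, while Des, Myod1 and Myog overlapped. The epithelial list was at 9.28 to 14.3 CPM against 28.4 to 37.4 CPM. Krt19 (4.002 to 5.30 CPM against 23.2 to 32.8 CPM) and Epcam were lower in RepB-/- without overlap, Krt14 was higher (3.16 to 5.76 CPM against 0.607 to 2.32 CPM), and Cdh1 and Krt5 overlapped. The fibroblast list summed to 18755 to 20806 CPM in RepB-/- and 14366 to 17665 CPM in WT. Of its 9 genes Col1a1, Col3a1, Dcn and Pdgfra were higher in RepB-/- without overlap, Thy1 was lower (162 to 183 CPM against 211 to 243 CPM), and the other 4 overlapped. The part of these shifts in the mitotic values was not tested.

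The other genes of the same machinery were followed in 5 lists of 101 genes, 100 of which were tested in MEFs: 44 were higher and 2 lower, against 19.4% and 19.7% of all genes. Of 29 further kinetochore and centromere genes, 10 rose and 2 fell. Ska3, of the SKA complex that couples kinetochores to microtubules, and Cenpq, of the inner kinetochore, rose by log2 values of 1.00 (adjusted p = 0.00141) and 0.89 (adjusted p = 0.00466). Hjurp, the chaperone that deposits CENP-A, fell from 75.8, 61.8 and 58.1 CPM in WT to 45.7, 41.6 and 43.5 CPM in RepB-/- (log2 -0.58 ± 0.10, adjusted p = 0.000504). Zwint, the KNL1-binding kinetochore protein, fell from 197, 167 and 159 CPM to 140, 134 and 151 CPM (log2 -0.30 ± 0.09, adjusted p = 0.0138, or 0.0550 and 0.0815 without RepB-/- replicates 1 and 2). In both the genotypes did not overlap, and both lie in the opposite direction to Knl1 and the NDC80 genes.

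Of 22 tested spindle and cytokinesis genes 10 rose, led by Kif20b (0.94, adjusted p = 0.00229), a kinesin of the midbody, and Nusap1 (0.88, adjusted p = 0.000837), a microtubule bundler. Of 15 cohesin and condensin II genes 10 rose, led by the cohesin subunit Stag2 (0.91, adjusted p = 2.2e-05), which is X-linked, and the condensin II subunit Ncapg2 (0.85, adjusted p = 0.000219). Among 18 genes of the anaphase-promoting complex and its regulators 9 rose, led by its inhibitor Fbxo5 (1.03, adjusted p = 0.000714) and its subunit Cdc16 (0.40, adjusted p = 0.000533). Of 16 regulators of mitotic transcription 5 rose. Mybl2, the B-MYB that joins the MuvB core, rose by 0.72 (adjusted p = 0.000355) and Rbl1, or p107, by 0.62 (adjusted p = 0.00196). Foxm1, the forkhead activator of G2 and M genes, was at 32.6, 33.1 and 31.8 CPM in RepB-/- and 31.8, 31.0 and 31.3 CPM in WT (0.05, adjusted p = 0.647), and the MuvB subunit Lin54 was at 0.01 (adjusted p = 0.926).

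In liver 0 of the 42 genes passed the test, and 0 passed with replicate number as a block. Under an unadjusted p of 0.05 were 0 of the 42 by edgeR or DESeq2, where 502 of the 16080 genes tested were by edgeR. That share is low, so a count of 0 says little. Over the 16080 genes tested in liver, 0.0373% were called, and 0.0498% with the block. With the block 17 of the 42 were under an unadjusted p of 0.05, all of them higher in RepB-/-, against 6.7% of all genes in either direction, and the lowest adjusted p was 0.392, for Mki67. Without the library labelled RepB-/- replicate 2 the block left 2 of the 42, Mki67 and Prc1, under an unadjusted p of 0.05 (4.51% of all genes). A term for replicate 1 in place of the block left 1, Spc24, which lay below 0 (7.92% of all genes). The median log2 difference of the 42 genes was 0.60, and 41 lay above 0, but the spread between livers was wide, with a biological coefficient of variation of 51.2% against 9.06% in MEFs. Leaving out RepB-/- replicate 1 or WT replicate 1 moved the median to 0.04 and 1.47, leaving out WT replicate 2 moved it to 0.14, and leaving out the library labelled RepB-/- replicate 2 moved it to 0.91. The SE of the log2 difference ran from 0.21, for Bub3, to 1.24, for Bub1, where that in MEFs was at most 0.33, for Cenpk. Liver differences of the size seen in MEFs could therefore go undetected here, to an extent that differed between genes.

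**Figure D4:**
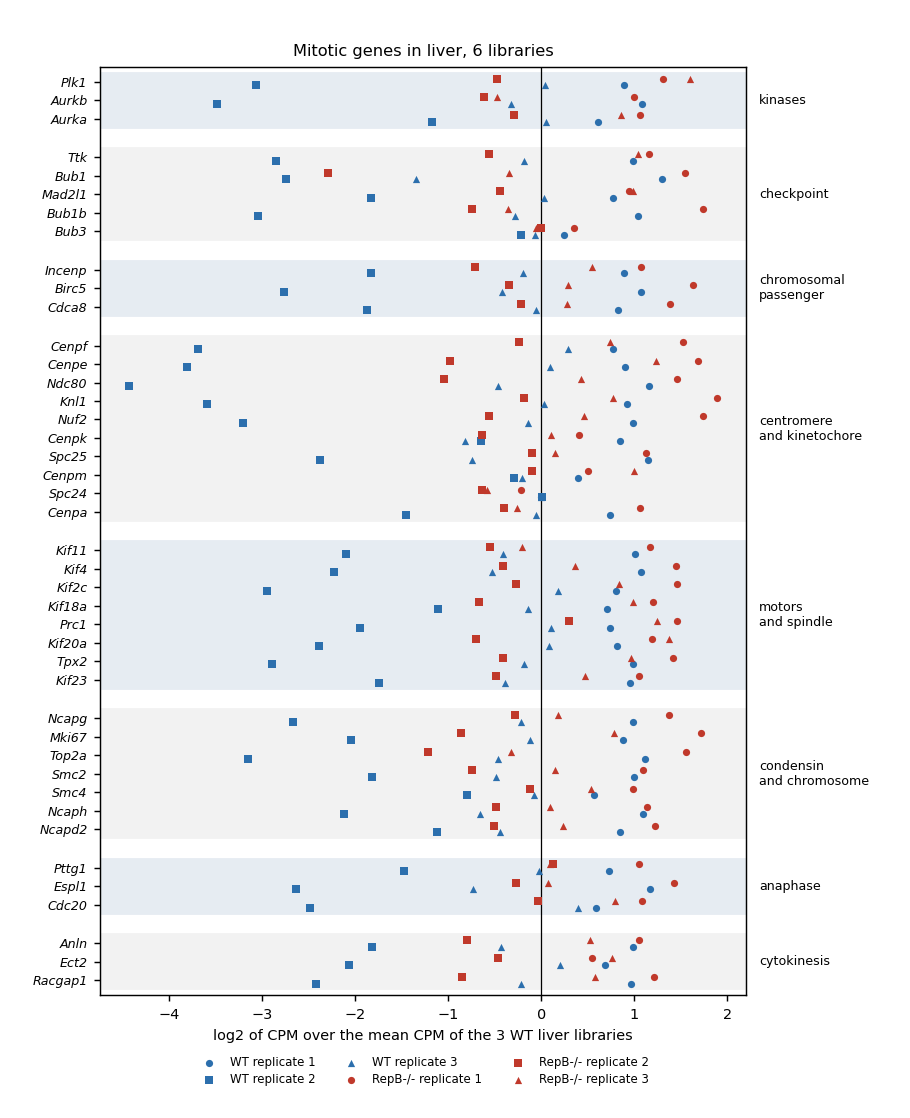
Each of the 42 genes in the 6 liver libraries, as the log2 of its CPM over the mean CPM of the 3 WT libraries, in the gene order of the MEF plot; red symbols are libraries labelled RepB-/-, blue symbols WT, and shapes give the replicate number. The blue squares of WT replicate 2 lie farthest left in 40 genes and the circles of replicate 1 lie to the right, on an axis several times wider than that of the MEF plot.

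The liver libraries differed widely within each genotype. Mki67 was at 54.2, 9.06 and 28.3 CPM in the libraries labelled RepB-/- replicates 1 to 3 and at 30.4, 4.004 and 15.1 CPM in WT. Top2a was at 48.6, 7.09 and 13.2 CPM and at 35.8, 1.86 and 11.998 CPM. Plk1 was at 11.7, 3.42 and 14.4 CPM in RepB-/- and 8.81, 0.568 and 4.90 CPM in WT. In all 3 genes WT replicate 2 was the lowest of the 6 libraries, and the genotypes overlapped, with log2 differences of 0.89 ± 0.84 for Mki67, 0.47 ± 1.07 for Top2a and 1.05 ± 0.93 for Plk1. Kif4 was at 7.27, 2.01 and 3.41 CPM against 5.58, 0.568 and 1.84 CPM. The largest log2 difference was that of Prc1, the microtubule bundler of the midzone, at 12.8, 5.72 and 11.1 CPM against 7.79, 1.21 and 5.01 CPM (1.08 ± 0.66). Neither Kif4 nor Prc1 separated the genotypes.

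Replicate 1 was the highest of its genotype, in RepB-/- and WT alike, in 36 of the 42 genes, against 27.9% of all genes tested, and WT replicate 2 was the lowest of 6 in 40 genes, against 16.1%. The CPM of the 42 genes summed to 547, 189 and 346 in the libraries labelled RepB-/- replicates 1 to 3 and to 431, 95.4 and 224 in WT. Replicate 1 is also the pair with the fetal liver markers given above. Erythroid markers (8 genes with counts) summed to 3920, 1777 and 866 CPM in RepB-/- and to 1560, 251 and 220 CPM in WT, so they too were highest in replicate 1 of each genotype. Within same-numbered pairs the erythroid sum was also higher in RepB-/-, by 2.51-fold, 7.07-fold and 3.94-fold in pairs 1 to 3. Of its 8 genes 5 were higher in every pair, against 15.4% of all genes tested on the TMM scale. Alas2, Epor and Klf1 were not. The fibroblast sum (1.36, 1.53 and 1.13-fold) and the immune sum (1.71, 1.12 and 1.28-fold) were higher in every pair too, and those of the remaining lists were not. By gene, however, only 4 of 9 fibroblast genes and 1 of 8 immune genes were higher in every pair. These 2 sums therefore do not describe most genes of their lists. The part of erythroid cells, or of cells of the other lists, in the mitotic values was not tested.

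Within same-numbered pairs, 35 of the 42 genes were higher in RepB-/- in all 3 pairs, against 15.4% of all genes tested, and in pairs 1 and 3 alone the count was also 35, against 26.6%. The median log2 ratio of the 42 genes was 0.35, 1.64 and 0.75 in pairs 1 to 3, where that of all genes was 0.022, 0.0059 and -0.0082. The genes share their libraries, so these are 3 observations and not 42. Pairs 2 and 3 rest on the numbers alone, as crossed libraries correlated as well (0.41 and 0.40 against 0.36 and 0.37). Crossed, the CPM sum of the 42 genes was 189 in the library labelled RepB-/- replicate 2 against 224 in WT replicate 3. It was 346 in RepB-/- replicate 3 against 95.4 in WT replicate 2. The count of genes higher in every pair therefore depends on the numbering. Pair 2 holds the library labelled RepB-/- replicate 2, with its Y-linked counts, as well as WT replicate 2, and without the former the fitted values still gave 0 calls. Kinases (2.59), centromere and kinetochore genes (2.46) and anaphase genes (2.37) had the largest median log2 ratios in pair 2, and condensin and chromosome genes the smallest (1.18). This order rests on a single pair with few counts of many genes in WT replicate 2. That library held 17 to 104 counts per gene in kinases, 2 to 417 in centromere and kinetochore genes, 14 to 59 in anaphase genes and 14 to 241 in condensin and chromosome genes.

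**Figure D5:**
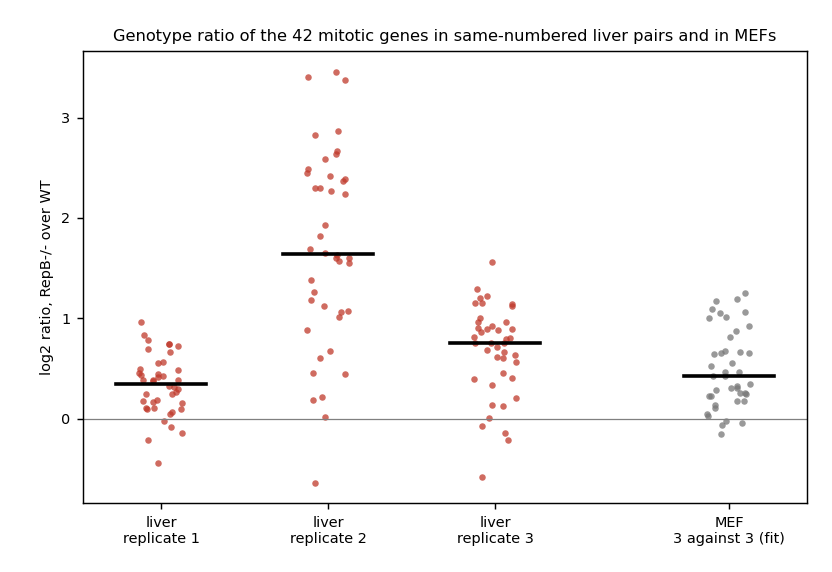
The log2 ratio of RepB-/- to WT for each of the 42 genes in the 3 same-numbered liver pairs (red) and, for comparison, the fitted MEF log2 fold change over 3 against 3 libraries (grey); black bars are medians. The medians were 0.35, 1.64 and 0.75 in liver and 0.42 in MEFs, and most points of every column lie above 0. Pairs 2 and 3 rest on the replicate numbers alone, since the data do not tell these replicates from each other.

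Spc24 was the gene that ran against the rest in liver, and it was singled out after its values were seen. It was at 9.24, 6.91 and 7.15 CPM in the libraries labelled RepB-/- replicates 1 to 3 and at 10.7, 10.8 and 10.7 CPM in WT. All libraries labelled RepB-/- were thus below all WT libraries, as in 4.66% of all genes tested. Its log2 difference of -0.47 ± 0.22 did not pass the test after adjustment. With the block and without the library labelled RepB-/- replicate 2 the difference was -0.40 (unadjusted p = 0.206 by edgeR). No gene of the 42 had all livers labelled RepB-/- above all WT livers (3.38% of all genes). Replicate 1 did not stand out in WT for this gene as it did for the others.

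The genotype difference in MEFs was set against that in liver with an interaction term over all 12 libraries. It passed for 0 of the 42 genes by edgeR, against 0.388% of the 15208 genes tested, and for 0 by DESeq2, against 4.29% of all genes. Under an unadjusted p of 0.05 by edgeR were 1 of the 42, Spc24, and 2166 of the 15208 genes. For Spc24 the log2 difference between the tissues was 0.75 ± 0.24 (MEF minus liver, adjusted p = 0.190). With replicate number as a block 0 passed, where 1.26% of all genes passed. With that block 5 of the 42 were under an unadjusted p of 0.05, and 3056 of the 15208 genes. Given the spread in liver, this does not show that the tissues respond alike. None of the 99 related genes tested in liver passed the test either, with 1 under an unadjusted p of 0.05 by edgeR, against 502 of all 16080 genes.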

How the data were processed

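The authors deposited a MEF table and a liver table. Each holds whole-number read counts per gene and FPKM values, which the authors scaled by gene length and library total; 6 further columns of per-library values in the liver table were not used. Per the study's methods, stranded mRNA libraries were sequenced as paired ends, trimmed with Cutadapt and aligned with Hisat2, while the submitters' processing notes name Trim Galore 0.4.1, STAR 2.7.0 and HTSeq 0.12.4; which applies to which table, and whether counting used strand, is not given in the sources used here. Exons of 11 of the 42 genes overlap another gene (GENCODE vM21), 9 of them on the opposite strand, and their counts could hold reads of that gene. The MEF table has GRCm39 coordinates and the liver table GRCm38. Brain libraries were not analysed here.

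Counts were tested in each tissue with edgeR 4.0.16 (R 4.3.3), TMM, filterByExpr and the quasi-likelihood test, and p-values were adjusted by Benjamini-Hochberg across every gene tested. No block was used in the main fits. Tissues were compared by an interaction term over 12 libraries. CPM are counts scaled to the total of the tested genes times the TMM factor, and values relative to the WT mean use log2 CPM with a prior count of 2. CPM of cell type markers are instead scaled to all counts of the library, without TMM. FPKM served only to compare levels between genes. Promoter windows come from RefSeq (GRCm38.p6), and transcript GC content is that of GENCODE vM21.

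The genes, lists and tests were chosen with earlier results of these data known. In MEFs the gene of each subgroup with the largest and the smallest absolute log2 fold change was given in full, with Aurka, Aurkb, Plk1, Birc5, Mki67, Top2a and Kif4; in liver Mki67, Top2a and Plk1; and from each related list the 2 called genes that rose most, every called gene that fell, and Foxm1, Mybl2 and Lin54. Bub1, Kif2c, Espl1 and other genes given by fold alone complete the subgroups. Alternatives were DESeq2 1.42.0, DESeq2 size factors, TMM over autosomal genes, no filter, replicate number as a block, each library left out in turn, and in liver a term for replicate 1, the same term leaving out RepB-/- replicate 2, and replicates 2 and 3 alone. The GC correction (a lowess trend of span 0.3), scaling to total counts, the block without the library labelled RepB-/- replicate 2 and a shorter promoter window were chosen after seeing the data. In liver, same-numbered libraries deviated together from their group means (correlations 0.71, 0.36 and 0.37 over 16080 genes), so the numbers were treated as pairs. The crossed correlations of replicates 2 and 3 were as high (0.41 and 0.40) and those with replicate 1 were -0.55 to -0.49, so the data set replicate 1 apart and do not tell replicates 2 and 3 from each other; the labels do not say what a number shares.

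The fits were tested on simulated data with known changes. In MEFs, 62.2% of 98 genes changed by 0.5 and 84% of 100 genes changed by 1 on the log2 scale were recovered (13216 genes). In liver 0% of both were recovered (15648 genes), or 4.2% of changes of 1 with the block (15570 genes). The simulated MEF data held far fewer changed genes than the 39.1% called in the real ones. Adjusted p-values depend on that share, so the MEF rates describe the simulation and not these libraries. The depth ranges are given in the report, and counting error is covered only as far as replicates show it.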

Additional observations from a re-analysis of the deposited data

How the results depend on the processing

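The counts of mitotic genes called in MEFs (24 higher, 0 lower) moved by less than 1.5 times under every alternative, except that 1 gene was lower with the GC correction. Leaving out a MEF library gave 20 to 25 higher and 0 lower, and a median log2 fold change of 0.37 to 0.44. The median was 0.33 with the GC correction and 0.31 with scaling to total counts. The 101 related genes had 2 called lower in MEFs, 7 with the GC correction, 6 with scaling to total counts and 1 to 3 when a library was left out. Genes near 0 changed sign. With scaling to total counts this held for Aurka (-0.063), Bub1b (-0.0051), Cdc20 (-0.092), Foxm1 (-0.061) and Lin54 (-0.0986). Cdca8 turned to 0.018 without a filter and 0.020 with the GC correction, and Kif18a to -0.056 with the GC correction. Leaving out a library gave ranges across 0 for Aurka (-0.089 to 0.15, negative without RepB-/- replicate 3), Cdca8 (-0.063 to 0.037), Cenpa (-0.11 to 0.025), Cdc20 (-0.020 to 0.048) and Lin54 (-0.036 to 0.092). MEF replicate numbers did not pair the libraries (correlations -0.011, -0.042 and -0.0035); with the block 24 genes were higher (18.5% of all genes), 23 of them the same, Kif2c was lost and Tpx2 gained. In liver and in the interaction every alternative gave 0 calls, the liver replicate block included; without a library the liver median ran from 0.04 to 1.47 (0.14 without WT replicate 2), and Top2a from -0.70 (without RepB-/- replicate 1) to 1.73, with -0.052 without WT replicate 2. The CHR share was 39.0% before the start only (17.1% of all windows), and the CCAAT share 56.1% in the shorter window. The causes of these changes were not tested. With 3 libraries per genotype and the spread of these livers, differences of the size seen in MEFs could go unresolved in liver, to an extent that differed between genes.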
